A study of Mus musculus with 2 samples.

Results

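The 67 histone cluster genes are the genes of a mouse single-cell count table whose symbols begin with Hist1h, Hist2h, Hist3h or Hist4h, out of 32285 genes in all. They were chosen by symbol, and the rule that names them also quotes one measured value, the gap between the 2 libraries in Hist1h2ap, so that gap is described here with no test; the contrast of cycling with other cells was named by the same rule with earlier results in view. The study behind them lowers muscarinic acetylcholine receptor M1 or M3 in mice, and both libraries analysed here are C57BL/6 controls from the proximal small intestine, control 1 titled for M1 and control 2 for M3. Villus and crypt fractions were pooled and made into 10x Genomics Chromium 3' libraries, which count each captured polyadenylated RNA molecule once by its unique molecular identifier (UMI). Age, sex and the number of animals per library are not given in the sources used here. Nor is it stated that different animals gave the 2 libraries, so p-values measure only the spread between these samples, which may be technical.

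Histones are the proteins around which DNA is wound: H2A, H2B, H3 and H4 form the core particle and H1 binds the linker DNA between particles. Most histone cluster genes are replication-dependent: they are transcribed when DNA is copied, have no introns, and their mRNAs end in a conserved stem-loop, bound by the protein SLBP, in place of a poly(A) tail. Some of the same genes can also give polyadenylated transcripts, for instance in cells that have left the cell cycle, and libraries primed on poly(A) count only RNA that the primer can reach.

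By family the genes are 6 for H1, 18 for H2A, 18 for H2B, 12 for H3 and 13 for H4. By the GENCODE M21 annotation of GRCm38, 54 of them lie on chromosome 13 between positions 21715763 and 23934851, 10 on chromosome 3, 2 on chromosome 11 and 1 on chromosome 6. Of the 67 genes, 62 are annotated with a single exon in every transcript. The conserved stem-loop pattern of histone mRNA 3' ends was searched on the sense strand, with its invariant bases fixed and its other bases free, and was found in annotated transcripts of 46 of the 67 genes (68.7%) and of 1.03% of all 55450 genes. Transcripts of 23 genes end within 100 bases after it, those of another 23 run on past it, and 21 genes have no match to these letters. Some of these 21 have short annotated transcripts, such as Hist1h4k with 312 bases and Hist1h2bl with 381. A match can be missing because the annotated transcript stops before the stem-loop, so its absence does not show that the RNA lacks one. The most frequent form, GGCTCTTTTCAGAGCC, was in 26 genes. The 3' ends of 8 genes that recur below are shown as the GENCODE M21 transcripts give them, read 5′ to 3′ on the gene's own strand, with the 16-base stem-loop in capitals and up to 5 bases on each side.
Hist1h2ap: aaaaaGGCTCTTTTCAGAGCCatc
Hist1h2ao: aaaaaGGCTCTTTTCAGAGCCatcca
Hist1h2ab: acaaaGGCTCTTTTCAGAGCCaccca
Hist1h3c: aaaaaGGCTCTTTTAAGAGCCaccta
Hist1h4d: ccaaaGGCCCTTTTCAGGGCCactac
Hist1h2ae: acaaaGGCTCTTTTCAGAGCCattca
Hist1h1e: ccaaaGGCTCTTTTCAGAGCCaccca
Hist1h1c: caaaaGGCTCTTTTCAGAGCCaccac
In Hist1h2ap the annotated transcript stops 3 bases after the stem-loop, and in Hist1h2ab it stops 11 bases after it. The transcripts of Hist1h2ae, Hist1h4d, Hist1h1c and Hist1h1e run on for 151, 770, 840 and 1153 bases. Hist1h1b (743 bases) and Hist1h2bc (1156 bases in 2 exons) have no match in their annotated transcripts.

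Promoter motifs were counted by histone family. RefSeq promoter sequence on GRCm38.p6 was matched for 62 of the 67 genes and searched over the 250 bases before the start site on both strands. The octamer ATTTGCAT was found in 7 of 18 H2A and 6 of 16 H2B promoters, in 0 of the 6 H1, 10 H3 and 12 H4 promoters, and in 1.61% of the 27025 promoters of all genes. CCAAT was found in 51 of 62 (82.3%) against 34.5%, with all 6 H1, 18 H2A and 16 H2B promoters, 8 of 10 H3 and 3 of 12 H4. TATAAA was found in 29 of 62 (46.8%) against 12.97%, and AAACACA, the letters of the H1 box, in 5 of 6 H1, 2 of 18 H2A, 2 of 16 H2B, 0 of 10 H3 and 0 of 12 H4 promoters against 6.22%. Matches of different motifs were counted separately and may overlap, and a match describes the sequence only. The last 150 bases before the RefSeq start site are printed for 3 genes, 5′ to 3′ on the gene's strand, with the octamer and TATAAA, on either strand, in capitals: Hist1h1b lies at chr13:21780626-21780775 (minus strand), Hist1h2ab at chr13:23750938-23751087 (plus strand) and Hist1h2ap at chr13:21833476-21833625 (minus strand).
Hist1h1b: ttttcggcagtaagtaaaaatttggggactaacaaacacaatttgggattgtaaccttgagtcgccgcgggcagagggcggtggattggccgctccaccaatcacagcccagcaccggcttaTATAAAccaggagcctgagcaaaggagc
Hist1h2ab: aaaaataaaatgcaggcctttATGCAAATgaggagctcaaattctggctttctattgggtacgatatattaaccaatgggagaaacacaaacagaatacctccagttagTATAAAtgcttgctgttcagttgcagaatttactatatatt
Hist1h2ap: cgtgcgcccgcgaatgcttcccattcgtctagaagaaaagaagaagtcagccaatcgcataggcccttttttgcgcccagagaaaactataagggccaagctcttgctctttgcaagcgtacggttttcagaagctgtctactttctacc
Hist1h2ab, with both marked motifs, and Hist1h2ap, with neither, were both among the genes with the largest rises in cycling epithelial barcodes, and they differed between the libraries in opposite directions. RefSeq and GENCODE start sites lie 0 bases apart for Hist1h1b, 38 for Hist1h2ab and 32 for Hist1h2ap. The printed stretch of Hist1h2ap thus reaches 32 bases into its GENCODE transcript, and that of Hist1h2ab ends 38 bases before its own.

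The deposited matrices held 54451793 UMIs in 9342 barcodes (control 1) and 36139325 UMIs in 7109 barcodes (control 2), and 17 barcode sequences occurred in both. After filters on genes (at least 500), mitochondrial UMIs (under 25%) and hemoglobin UMIs (under 50%), 7087 and 4720 barcodes were kept. A barcode was called epithelial or immune where one of 2 fixed lists of 15 markers had at least 3 UMIs and at least 3 times those of the other, and cycling where 95 S and G2/M phase genes, none of them a histone gene, made up at least 0.25% of its UMIs with at least 5 genes seen. This gave 309 and 148 cycling epithelial, 3845 and 2698 other epithelial, 313 and 228 cycling immune and 2406 and 1490 other immune barcodes in control 1 and control 2. Median depths were 3102 and 2124 UMIs in cycling and 2496 and 2561 in other epithelial barcodes, and 4668 and 3948.5 in cycling and 5164.5 and 4878.5 in other immune barcodes. The epithelial markers stood at 6997 to 11060 UMIs per 1000000 UMIs of the class (CPM) in the epithelial classes and at 474 to 570 CPM in the immune classes, where T and NK cell markers were at 27024 to 39525 CPM. Barcodes with the most UMIs weigh heavily in these sums: without the 6% deepest barcodes, cycling epithelial barcodes of control 1 held 966482 of their 3442552 UMIs. No doublets were removed.

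Of the 67 histone cluster genes, 64 had at least 1 UMI in kept barcodes, 60 had at least 20, 4 had 1 to 19, and Hist1h2aa, Hist1h2ba and Hist1h2bq had 0. Together they gave 49072 UMIs, or 673 CPM (95% Poisson interval 666 to 681) in control 1 and 705 CPM (695 to 715) in control 2; such intervals cover counting error only. Hist1h2bc, an H2B gene, gave 16740 of these UMIs (34.1%), and the 5 leading genes gave 64.5%. By family, H2B was at 318 CPM in control 1 and 201 in control 2, H1 at 174 in both, H2A at 74.5 and 165, H4 at 76.4 and 125, and H3 at 30.1 and 41.4. H2A thus made up 11.1% of histone cluster UMIs in control 1 and 23.3% in control 2, and H2B 47.2% and 28.5%. Hist1h2ap, described below, carried most of the H2A shift: without it H2A was at 71.9 and 89.1 CPM. That was 10.7% and 14.1% of the remaining histone cluster UMIs. Most of the H2B shift remained without Hist1h2ap, with H2B at 47.4% and 31.9%. The mix also differed by class: H2B held 73.1% and 51.5% of these UMIs in other epithelial barcodes but 14.6% and 8.55% in cycling epithelial barcodes, where H1 (40.6% and 24.0%) and H2A (23.4% and 44.8%, or 22.5% and 25.8% without Hist1h2ap) held more. These are shares of captured UMIs, and capture may differ between genes.

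**Figure D1:**
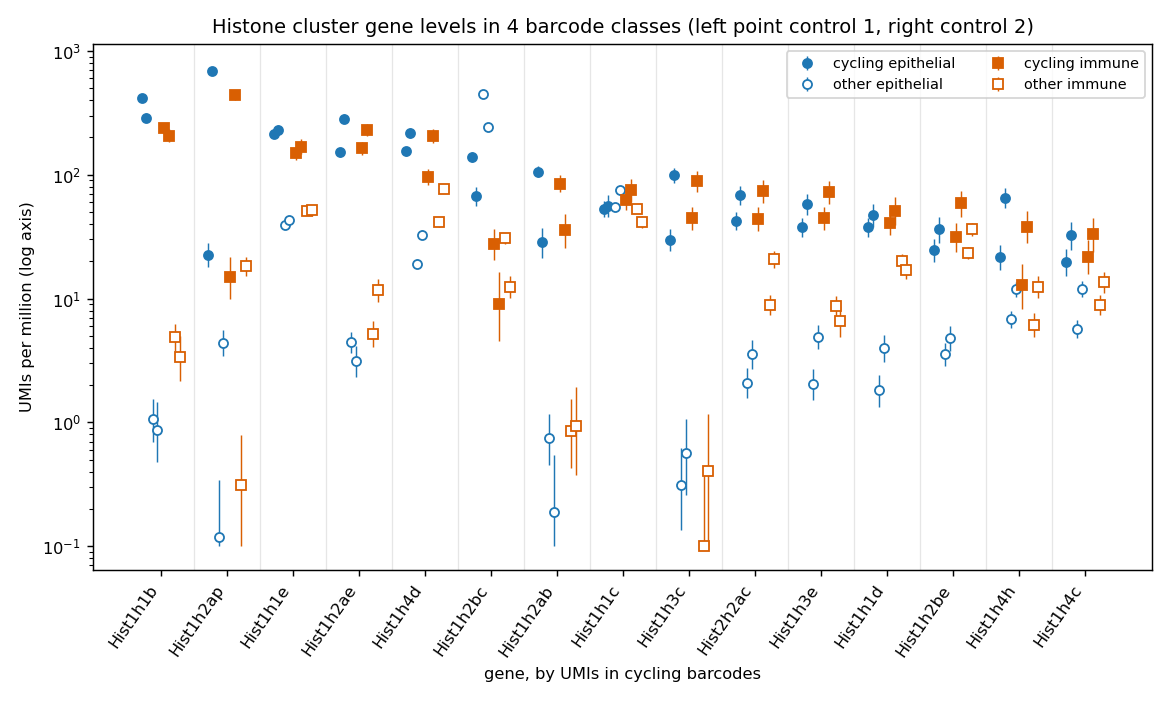
Levels of the 15 histone cluster genes with the most UMIs in cycling barcodes, in CPM on a log axis, with 95% Poisson intervals (counting error only); for each class the left point is control 1 and the right point control 2, and values under 0.1 are drawn at 0.1. Hist1h1b stands at 289 to 413 in cycling and near 1 in other epithelial barcodes, while Hist1h2bc is higher in other epithelial barcodes.

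In cycling epithelial barcodes the histone cluster genes together were at 1827 CPM (1782 to 1873) in control 1 and 2691 CPM (2617 to 2767) in control 2, against 626 (616 to 636) and 494 (484 to 505) in other epithelial barcodes. At least 1 histone cluster UMI was found in 85.8% and 77.7% of cycling and in 82.7% and 74.1% of other epithelial barcodes, so the classes differed far more in level than in the share of barcodes. In the 218 and 79 cycling and 2376 and 1685 other epithelial barcodes deep enough to be thinned to 2000 UMIs, the shares were 77.5% and 81.0% against 75.2% and 61.7%. Gene by gene, 57 of the 67 passed the filter on low counts, a filter that a gene high in a single class can pass. Of these 57, 47 rose, 2 fell and 8 did not pass the threshold (edgeR quasi-likelihood test on class sums with library as a block, Benjamini-Hochberg adjusted p under 0.05 over all genes). All 49 called genes had the direction of their call in both libraries, which are the libraries that gave the calls. Over all 13777 genes tested, 19.3% were called higher and 35.1% lower. The median log2 fold change was 3.55 over the 57 histone cluster genes and -0.36 over all genes tested. Scaling by total UMIs alone shifted the median of all genes to 0.18, with 32.1% higher and 20.8% lower, and gave 52 histone cluster genes higher and 1 lower.

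Among H1 genes, Hist1h1b (chromosome 13, 21779883 to 21780625), a replication-dependent linker histone gene, was at 413 CPM in control 1 and 289 in control 2 in cycling epithelial barcodes and at 1.06 and 0.874 in other epithelial barcodes. Each cycling value lay far above each other value, and Hist1h1b rose by a log2 fold change of 7.92 ± 0.20 (SE, n = 2 libraries, edgeR adjusted p = 4.47e-08). Of its epithelial UMIs, 98.1% and 97.4% were in cycling barcodes, which held 11.9% and 10.4% of all epithelial UMIs. Hist1h1e was at 211 and 230 CPM against 39.2 and 42.7 and rose by 1.88 ± 0.14 (edgeR adjusted p = 3.32e-06). Hist1h1d was at 37.8 and 47.0 CPM against 1.81 and 4.00 (log2 fold change 3.38 ± 0.30). Hist1h1a was at 25.9 and 22.7 CPM against 1.93 and 1.19 (3.38 ± 0.43). Hist1h1c, a linker histone gene also expressed outside S phase, was at 53.2 and 56.2 CPM against 55.2 and 75.0, with little difference in control 1. It was called lower (-0.80 ± 0.19, edgeR adjusted p = 0.00482), but this call ended with total UMIs as the only scaling (-0.24, adjusted p = 0.329) and the value turned to 0.12 (adjusted p = 0.703) without the 6% of barcodes with the most UMIs. Exons of Hist1h1e overlap those of Hist1h2be and Gm11398 on the same strand, so their counts cannot be fully told apart.

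Of 15 H2A genes tested, 14 rose, 0 fell and 1 did not pass, with a median log2 fold change of 4.69. Hist1h2ap (chromosome 13, 21833026 to 21833507) was at 22.7 CPM in control 1 and 690 in control 2 in cycling epithelial barcodes, against 0.118 and 4.37 in other epithelial barcodes. Control 2 was higher than control 1 by 30.4-fold in cycling and 37.0-fold in other epithelial barcodes, yet cycling lay far above other in each library, and Hist1h2ap rose by 6.85 ± 0.24 (edgeR adjusted p = 1.84e-07). Hist1h2ae was at 152 and 284 CPM against 4.45 and 3.12 (log2 fold change 5.15 ± 0.34), and Hist1h2ab at 106 and 28.6 against 0.748 and 0.187 (6.47 ± 0.35). Hist1h2af was at 21.8 and 29.2 CPM against 0.0787 and 0.125, from 2 UMIs in other barcodes of each library (7.30 ± 0.55). Hist1h2an (6.49 ± 0.45), Hist1h2ah (5.75 ± 0.93) and Hist2h2ac (3.75 ± 0.22) also rose. Hist2h2aa1 was the tested H2A gene that was not called (0.41 ± 0.43).

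Of 16 H2B genes, 14 rose, Hist1h2bc fell and 1 did not pass, with a median of 3.82. Hist1h2bc (chromosome 13, 23684199 to 23692908, plus strand) was at 139 and 67.0 CPM in cycling epithelial barcodes of control 1 and control 2 and at 450 and 245 CPM in other epithelial barcodes. Each library's cycling value was below its other value, and Hist1h2bc fell by 2.34 ± 0.18 on the log2 scale (edgeR adjusted p = 4.16e-06). Only 4.02% and 3.07% of its epithelial UMIs were in cycling barcodes. Hist1h2be rose (24.7 and 36.2 against 3.54 and 4.81 CPM, 2.30 ± 0.21), as did Hist1h2bn (6.09 ± 0.66), Hist1h2bm (6.05 ± 0.53) and Hist1h2bj (5.21 ± 0.45). Hist3h2ba was near 1 CPM in both epithelial classes (-0.04 ± 0.57).

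Of 10 H3 genes, 8 rose and 2 did not pass, with a median of 4.31; of 11 H4 genes, 7 rose and 4 did not pass, with a median of 1.53. Hist1h3c was at 29.9 and 98.8 CPM in cycling and 0.315 and 0.562 in other epithelial barcodes (log2 fold change 6.49 ± 0.34). Hist1h3e was at 37.5 and 57.8 CPM against 2.05 and 4.93 (3.28 ± 0.33). Hist1h3b (6.46 ± 0.66), Hist1h3h (5.72 ± 1.04) and Hist1h3i (5.05 ± 0.48) rose too. Among H4 genes, Hist1h4d was at 155 and 218 CPM against 19.2 and 32.8 (2.32 ± 0.15), Hist1h4h at 21.8 and 64.8 against 6.81 and 11.9 (1.53 ± 0.25) and Hist1h4c at 19.8 and 32.4 against 5.70 and 11.9 (1.06 ± 0.22). The cycling value of Hist1h4c in control 1 was above the other values of both libraries, and its call ended without the library block (adjusted p = 0.0661). Hist1h4k had the largest H4 change, 4.95 ± 0.77, with 3.78 CPM in cycling epithelial barcodes of both libraries. Over all kept barcodes it had 34 UMIs in control 1 and 30 in control 2. The H4 genes not called were Hist1h4i (0.98 ± 0.44), Hist1h4j (1.58 ± 0.66), Hist4h4 (0.75 ± 0.44) and Hist2h4 (-0.33 ± 0.66).

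By annotated 3' end, 18 of 19 tested genes whose transcripts stop near the stem-loop rose (median 3.79), as did 16 of 18 with no match (median 4.82) and 13 of 20 whose transcripts run on past it (median 1.84). The 2 genes called lower, Hist1h2bc and Hist1h1c, belong to the last 2 groups. Genes whose transcripts stop near the stem-loop gave 13.7% of histone cluster UMIs, those that run on gave 42.4% and those with no match 43.9%. These are descriptions of groups that share loci and, in part, sequence. The group with no match may include genes whose annotated transcripts stop before a stem-loop.

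**Figure D2:**
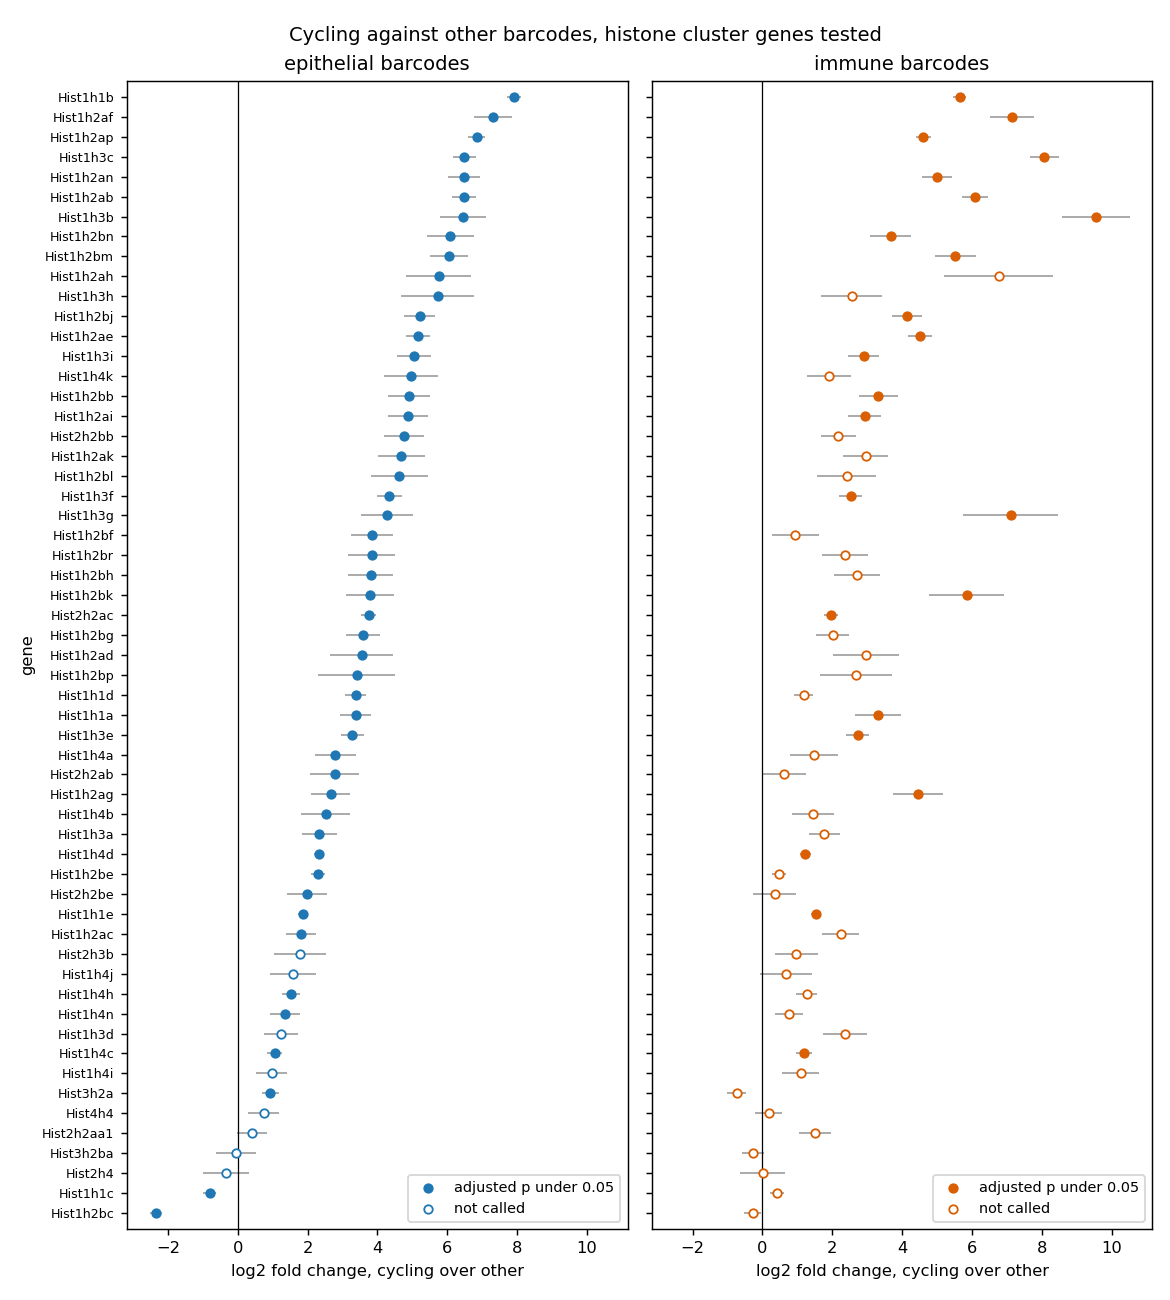
Log2 fold changes, cycling over other barcodes, of the 57 histone cluster genes tested, with standard errors, for epithelial (left) and immune (right) barcodes, ordered by the epithelial value; filled points have an adjusted p under 0.05. In epithelial barcodes 47 points are called above 0 and Hist1h2bc and Hist1h1c below it; in immune barcodes 24 are called above 0.

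Among barcodes with at least 2000 UMIs, the level followed the share of cell-cycle UMIs. In epithelial barcodes of control 1 all histone cluster genes together were at 590 CPM where that share was under 0.1% and at 690, 743, 1613 and 3482 CPM in the bins up to 0.25%, 0.5%, 1% and above 1%. In control 2 the values were 470, 583, 1019, 3254 and 5988 CPM, the third of them from 17 barcodes. Hist1h1b went from 0.650 and 0.524 CPM in the lowest bin to 864 and 815 CPM in the highest, with nearly the same values in both libraries. Hist1h2bc went the other way, from 428 and 229 CPM to 93.6 and 70.7. In immune barcodes the sum was flat, at 331 to 478 CPM in control 1 and 353 to 457 in control 2, in every bin up to 1%. Above 1% it was 6453 CPM in 26 barcodes of control 1 and 11665 CPM in 14 barcodes of control 2. The immune bins from 0.5% to 1% held 13 and 10 barcodes.

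**Figure D3:**
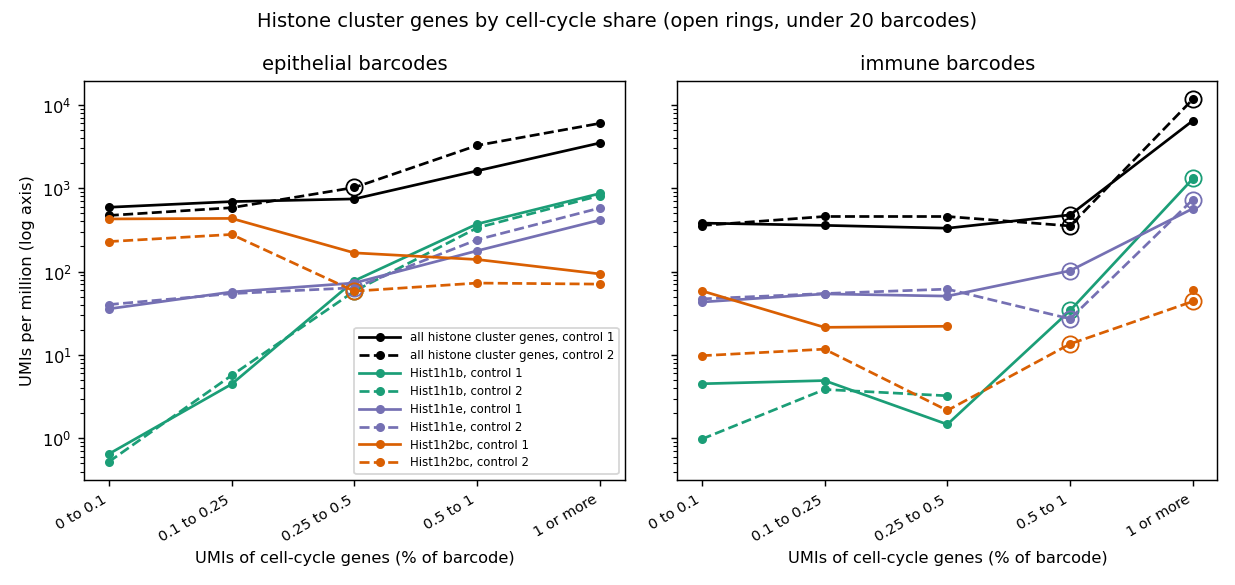
CPM (log axis) of all histone cluster genes, Hist1h1b, Hist1h1e and Hist1h2bc by the share of a barcode's UMIs in cell-cycle genes, in epithelial (left) and immune (right) barcodes of at least 2000 UMIs; solid lines are control 1, dashed lines control 2, rings mark bins of under 20 barcodes, and points at 0 are not drawn. The sum climbs over the epithelial bins to 3482 and 5988, and in immune barcodes stands apart only above 1%.

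In immune barcodes, where T and NK markers were the highest of the immune lists, histone cluster genes were at 1434 CPM (1380 to 1489) in control 1 and 2209 (2126 to 2295) in control 2 when cycling, against 362 (352 to 373) and 436 (421 to 451) in other immune barcodes. The share of barcodes with a histone cluster UMI hardly differed, at 70.9% and 67.5% of cycling and 68.9% and 67.4% of other immune barcodes. Thinned to 2000 UMIs, the shares were 47.6% and 48.0% against 47.2% and 50.5%. Of the 57 genes tested, 24 rose, 0 fell and 33 did not pass (edgeR; at an unadjusted p under 0.05, 43 were higher and 1 lower; DESeq2 called 31 higher and 0 lower), where 1.28% of all genes were called higher and 0.74% lower. The count was smaller under other choices: 10 of 54 rose with a looser rule of 0.1% and 5 genes (0.293% of all genes higher), 14 of 53 without the 6% of barcodes with the most UMIs (0.823%) and 8 of 37 after thinning each barcode to 2000 UMIs (0.42%). The median was 2.36 over the histone cluster genes, the same with genes absent from other immune barcodes set to their lower bound, and -0.04 over all genes. Many of these barcodes lay near the threshold: 153 of 313 and 108 of 228 had a cell-cycle share between 0.25% and 0.3%, and only 43 and 25 passed a stricter rule of 0.5% and 10 genes, against 196 of 309 and 96 of 148 epithelial barcodes. With that rule 44 of 59 immune genes rose, where 3.18% of all genes were higher and 6.58% lower, and with 1% and 10 genes, added after the data were seen, 46 of 57 rose, where 3.07% were higher and 7.04% lower. Under the 1% rule the classes held 30 and 15 immune barcodes.

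Hist1h1b was at 236 and 207 CPM in cycling immune barcodes against 4.90 and 3.35 in other immune barcodes and rose by 5.65 ± 0.18 (edgeR adjusted p = 4.53e-07). Hist1h2ap was at 14.9 and 437 CPM against 0.311 and 18.2 (4.61 ± 0.22), a call that ended without the library block (4.54, adjusted p = 0.848). Hist1h2ae was at 163 and 230 CPM against 5.21 and 11.8 (4.52 ± 0.34), Hist1h2ab at 84.6 and 35.6 against 0.855 and 0.937 (6.08 ± 0.37), and Hist1h3c at 44.7 and 88.6 against 0.0777 and 0.401, from 1 and 3 UMIs (8.07 ± 0.42). Hist1h3b had 45 UMIs in cycling and 0 in other immune barcodes, at least 98.8-fold higher taking 3 UMIs over both libraries as the limit that a count of 0 allows. Hist1h3g, with 9 against 0, was at least 19.8-fold higher. Hist1h1e (148 and 168 against 51.4 and 51.5 CPM, 1.53 ± 0.14) and Hist1h4d (96.3 and 205 against 41.6 and 76.9, 1.23 ± 0.15) rose less. The edgeR call of Hist1h4d was lost without the library block (1.24, adjusted p = 0.408), after thinning (0.39, adjusted p = 0.651) and without the 6% of barcodes with the most UMIs (0.57, adjusted p = 0.268), and that of Hist1h1e after thinning (0.76, adjusted p = 0.13). With the 0.1% rule Hist1h3b (7.23, adjusted p = 0.0752) and Hist1h3g (4.81, adjusted p = 0.4) lost theirs. Hist1h2bc was low in both immune classes, at 27.7 and 9.11 CPM in cycling and 30.6 and 12.4 in other barcodes (-0.28 ± 0.23, adjusted p = 0.86), and Hist1h1c did not pass either (0.42 ± 0.20).

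The test of the difference between the epithelial and immune changes called 12 histone cluster genes with a larger rise in epithelial barcodes and 2 with a lower value there, against 11.4% and 20.6% of all genes. Hist1h1b differed by 2.27 ± 0.27 and Hist1h2ap by 2.24 ± 0.31 on the log2 scale, and Hist1h2bc by -2.06 ± 0.30. The count depended on where the cycling class was drawn: with the 0.5% rule 2 genes were higher and 11 lower (10.7% and 5.22% of all genes), and Hist1h1b was at -1.27 and Hist1h2ap at -1.27; with the 1% rule 1 gene was higher and 13 lower (5.62% and 3.34%). The levels show the same turn, since under the 0.5% rule the histone cluster genes were at 4623 and 8686 CPM in cycling immune and at 2323 and 4176 CPM in cycling epithelial barcodes. The compartment with the larger rise thus depended on that rule, while Hist1h2bc was lower in cycling epithelial barcodes under each of the 4 cycling gates tried.

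Cycling barcodes were split by which list, S phase or G2/M phase, held more UMIs, giving 124 and 47 S-rich and 181 and 97 G2M-rich epithelial barcodes and 180 and 107 S-rich and 109 and 105 G2M-rich immune barcodes. Histone cluster genes were lower, not higher, in S-rich barcodes: 1234 and 2276 CPM against 2054 and 2774 in G2M-rich epithelial barcodes, and 614 and 849 against 3114 and 3887 in G2M-rich immune barcodes. In epithelial barcodes 40 genes were tested and 0 rose, 2 fell and 38 did not pass (edgeR; unadjusted, 0 higher and 11 lower; DESeq2, 0 and 0), where 0.709% of all 9870 genes were higher and 1.3% lower. The 2 called, Hist1h2ae (85.3 and 216 against 178 and 299 CPM, -0.89 ± 0.22, adjusted p = 0.0144) and Hist1h1e (154 and 157 against 233 and 243 CPM, -0.71 ± 0.20, adjusted p = 0.0461), both lost their calls with DESeq2, with total UMIs only and with the 0.5% rule. In immune barcodes 0 rose, 22 fell and 18 did not pass (unadjusted, 0 higher and 33 lower; DESeq2, 0 and 16), where 0.162% of all genes were higher and 1.2% lower. Hist1h1b was at 73.8 and 80.6 CPM in S-rich and 570 and 367 in G2M-rich immune barcodes (-2.49 ± 0.22, edgeR adjusted p = 2.92e-10), and Hist1h2ap at 5.15 and 97.1 against 35.0 and 854 (-3.04 ± 0.27). Hist1h1c, Hist1h1d, Hist1h1e, Hist1h2ab, Hist1h3c, Hist1h3e and Hist2h2ac fell as well, by 1.13 to 3.01. The Hist1h1c fall (-1.13, edgeR adjusted p = 0.00567) turned to 0.30 (adjusted p = 0.998) after thinning to 2000 UMIs and lost its call with DESeq2, without the library block, with the 0.1% and 1% rules and without the 6% of barcodes with the most UMIs. The count of 22 depended on such choices too. With the 0.5% rule 20 of 29 fell, where 1.58% of all genes did, and without the 6% 14 of 24 fell (0.796%). Without the library block 12 of 40 fell (0.608%), after thinning 7 of 14 (0.496%) and with the 0.1% rule 6 of 49 (0.12%). With the 1% rule 0 of 21 fell (0.0289%), while 15 were lower at an unadjusted p under 0.05. Median cell-cycle shares were 0.596% and 0.814% in S-rich and 0.937% and 0.989% in G2M-rich epithelial barcodes, so that share moved with phase there. The immune medians were alike, at 0.303% and 0.302% in S-rich and 0.309% and 0.310% in G2M-rich barcodes. However, only 8 and 4 S-rich but 22 and 11 G2M-rich immune barcodes passed the 1% rule. The part of the cell-cycle share was not tested in either compartment.

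Other genes of histone biology were taken from 2 fixed lists. Of 10 tested histone genes outside the clusters, which make replacement variants or are present through the cell cycle, 5 rose in cycling epithelial barcodes and 0 fell, where 19.3% of all genes were higher and 35.1% lower (32.1% higher with total UMIs only). Cenpa, the centromeric H3 variant, rose by 4.40 ± 0.23, H2afx, which is phosphorylated at DNA breaks, by 3.62 ± 0.17, and H2afz, the H2A.Z variant, by 2.04 ± 0.17. Of 25 tested genes of histone mRNA processing, chaperones and acetylation, 21 rose and 0 fell, against the same shares of all genes. Asf1b, an H3-H4 chaperone, rose by 6.35 ± 0.37, the CAF-1 subunits Chaf1b and Chaf1a by 4.20 ± 0.38 and 2.82 ± 0.44, Mms22l, which works with an H3-H4 reader at replication forks, by 2.89 ± 0.28, Nasp, which binds free H3-H4, by 2.61 ± 0.18, Hat1, which acetylates new H4, by 2.32 ± 0.17, and Lsm11, a U7 snRNP protein, by 1.96 ± 0.35. Slbp, whose product binds the stem-loop, rose by 1.13 ± 0.16. In cycling immune barcodes 3 of the 10 (Cenpa, H2afx and H2afz) and 3 of the 25 (Asf1b, Chaf1a and Mms22l) rose and 0 fell, where 1.28% of all genes were higher and 0.74% lower. Each of these 6 edgeR calls was lost under at least 2 alternatives. After thinning, the calls of H2afz (0.18, adjusted p = 0.878), Cenpa (1.15, adjusted p = 0.156), H2afx (0.76, adjusted p = 0.349), Asf1b (1.74, adjusted p = 0.178) and Chaf1a (1.14, adjusted p = 0.627) were lost, and that of Mms22l was lost with the 0.1% rule (0.37, adjusted p = 0.519). H2afz lost its call under 7 alternatives, DESeq2 size factors (adjusted p = 0.0508) and no library block (adjusted p = 0.537) among them. Against the histone cluster genes, Slbp (1.15 ± 0.22), Casp8ap2 (1.35 ± 0.26), Chaf1b (1.66 ± 0.37), Hat1 (0.90 ± 0.21) and Nasp (0.73 ± 0.20) were higher in S-rich than G2M-rich epithelial barcodes, while Cenpa (-2.36 ± 0.27) and H2afx (-1.58 ± 0.22) were lower.

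Hist1h2bc and Hist1h1c were looked at within other epithelial barcodes, because their levels there differed from those of the other genes. Barcodes with at least 2000 UMIs were put in 4 bins of equal size by their share of UMIs from 10 enterocyte markers, genes of absorptive cells. Hist1h2bc was at 279, 437, 576 and 799 CPM from the lowest to the highest bin of control 1 and at 163, 213, 302 and 409 CPM in control 2. The order was the same in both libraries, and control 1 was higher in each bin. Hist1h1c did not follow one order, at 52.0, 42.3, 55.1 and 77.6 CPM in control 1 and 102, 67.7, 46.4 and 58.5 in control 2. Hist1h1e was at 34.4 to 50.5 and 29.7 to 59.6 CPM. Median depth was lower in higher bins, with medians from 5805.5 to 3563 UMIs in control 1 and from 8957.5 to 3399 in control 2. The median mitochondrial share was 0.561%, 0.159%, 0.148% and 0.136% in control 1 and 2.19%, 0.183%, 0.134% and 0.123% in control 2, highest in the lowest bin. The part of depth and of that share in the order was not tested. Enterocyte markers, all 10 of which had UMIs in each epithelial class, were at 3870 and 2028 CPM in cycling and 70020 and 54723 CPM in other epithelial barcodes, and crypt and stem markers, all 8 with UMIs, at 2376 and 2624 against 259 and 67.1 CPM. Their part in the lower Hist1h2bc of cycling barcodes was not tested.

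**Figure D4:**
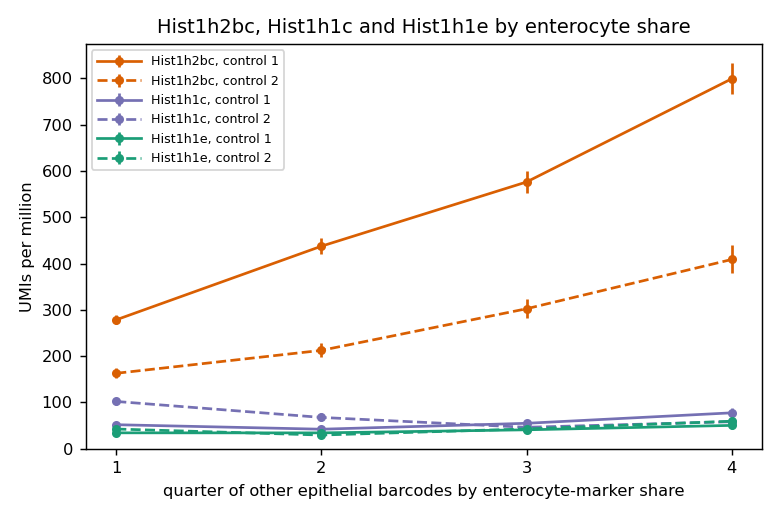
CPM of Hist1h2bc, Hist1h1c and Hist1h1e in other epithelial barcodes, by 4 equal bins of the enterocyte-marker share (1 lowest, 4 highest), with 95% Poisson intervals (counting error only); solid lines are control 1 and dashed lines control 2. Hist1h2bc climbs from 279 to 799 in control 1 and from 163 to 409 in control 2.

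The libraries were then compared gene by gene over kept barcodes. There is 1 library on each side, and Hist1h2ap's gap belongs to the rule that chose these genes, so the ratios (control 2 over control 1, in CPM, with exact 95% intervals for counting error) carry no test. Of 60 histone cluster genes with at least 20 UMIs, 11 were at least 2-fold higher in control 2, where 5.58% of 16153 genes were, and 4 at least 2-fold lower, where 4.38% were. At 4-fold the counts were 6 (1.31% of all genes) and 1 (1.12%). The median log2 ratio was 0.31 over the 60 genes and 0.03 over all. The sum over histone cluster genes differed little, with a ratio of 1.05 (1.03 to 1.07), or 0.939 without Hist1h2ap.

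Hist1h2ap had 114 UMIs in control 1 and 2041 in control 2, a ratio of 29.5 (24.4 to 35.9), which was 33rd of the 16153 genes from the top. The ratio was 30.4 in cycling epithelial, 37.0 in other epithelial (3 and 70 UMIs), 29.3 in cycling immune and 58.5 in other immune barcodes (4 and 136 UMIs). Its gap was thus of one size in the well-counted classes of both compartments. Of the 50-base words of its annotated transcript, 93.1% also occur in transcripts of another gene, first of all Hist1h2ao. Hist1h2ao had 4 UMIs in control 1 and 6 in control 2. The exon of Hist1h2ap overlaps that of Gm44466, which lies on the opposite strand. How reads that match several copies were counted is not stated by the labels or headers, and the counts of such copies are uncertain. In all, 32 of the 67 genes share at least 50% of their 50-base words with another gene.

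Hist1h2ap lies between 2 other genes with a gap in the same direction. Hist1h4n, just before it in chromosome order, had a ratio of 3.91 (2.999 to 5.15) and Hist1h2br, next to it on the other side, 9.74 (5.10 to 20.5) from 11 and 65 UMIs. Hist1h2bp, 5 genes before Hist1h2ap, was at 5.18 (2.14 to 14.4) from 7 and 22 UMIs, and the 3 genes between Hist1h2bp and Hist1h4n had too few UMIs. Hist1h2bl, the first of the chromosome 13 genes in order, was at 6.70 (3.76 to 12.7) from 15 and 61 UMIs. Hist1h4a, in another stretch of chromosome 13, was at 5.54 (3.51 to 9.03), and Hist2h2aa1 on chromosome 3 at 7.32 (5.28 to 10.4). Hist1h3c and Hist1h2bf were both at 2.54, Hist1h4h at 2.10 and Hist2h3b at 2.00, the last just inside the 2-fold limit; Hist2h3c2, just outside it, was at 1.85. Elsewhere on chromosome 13 Hist1h1e was at 1.05 (0.992 to 1.12), Hist1h1d at 1.09 and Hist1h2af at 1.07. Hist1h4c was at 1.78, Hist1h4d at 1.66, Hist1h2ae at 1.55 and Hist1h2be at 1.47, while Hist1h2bb at 0.637 and Hist1h4j at 0.560 lay below 1. Several genes with large ratios also share most of their transcript words with other genes. The share was 88.7% for Hist1h2br, 85.6% for Hist1h4n, 82.8% for Hist1h2bl and 89.4% for Hist2h2aa1. It was lower for Hist1h2bp (44.1%) and Hist1h4a (40.4%). The intervals do not cover how reads were divided among copies, and its part in these ratios was not tested.

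In the other direction, Hist1h2bn, with 86.4% of its words shared, had 102 UMIs in control 1 and 8 in control 2. Its ratio was 0.129 (0.0543 to 0.264). Hist1h2ab was at 0.324 (0.262 to 0.399) from 554 and 109 UMIs, with 0.270, 0.251 and 0.421 in cycling epithelial, other epithelial and cycling immune barcodes and 1.10 in other immune barcodes, where it had 11 and 7 UMIs. Hist1h2ag was at 0.395, and Hist1h3b had 103 and 25 UMIs, or 2.31 and 0.925 CPM. Hist1h2bc, at 0.548 (0.529 to 0.568), was lower in control 2 in each class, from 0.329 to 0.544. Hist1h1b was at 0.695 (0.640 to 0.754). Of the 21 genes with at least 20 UMIs in each of the 4 classes, 9 were higher in control 2 in each class, 3 (Hist1h1b, Hist1h2bc and Hist3h2a) lower in each, and 9 went both ways. Of all 8319 genes with that many UMIs, 20.4% were higher in each class and 20.6% lower in each. Hist1h2ap, Hist1h4n and Hist2h2aa1 were at least 2-fold higher in each class, as were 0.252% of all genes.

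**Figure D5:**
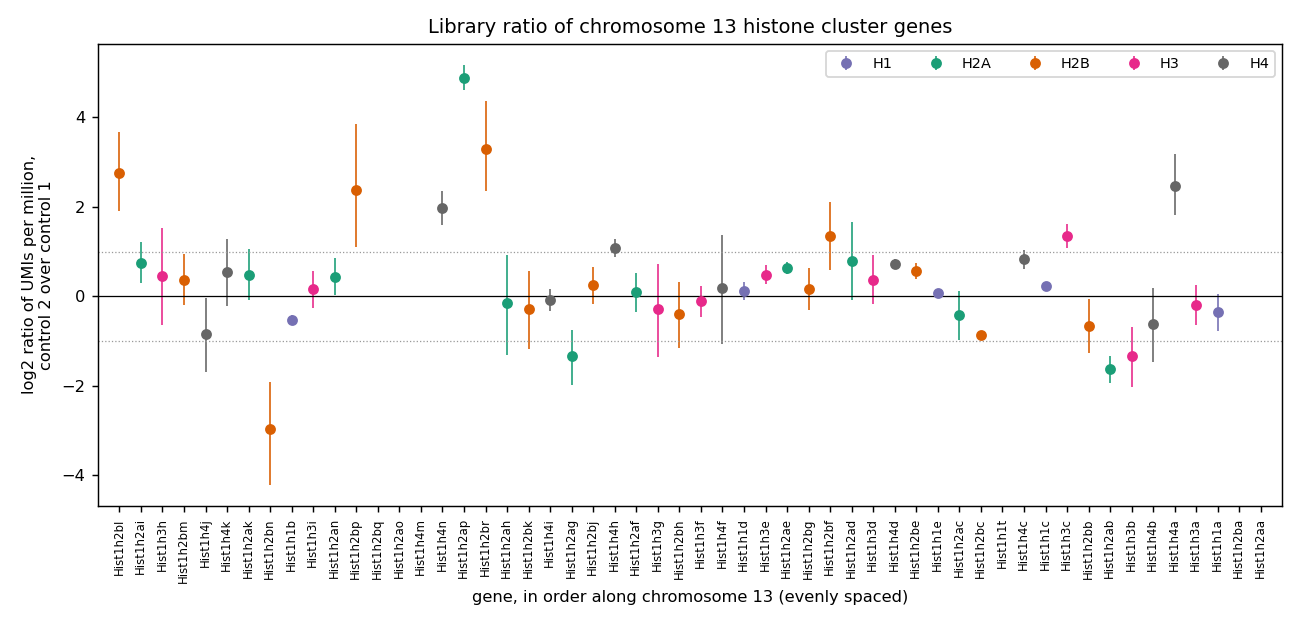
Log2 ratio of CPM, control 2 over control 1, of the histone cluster genes on chromosome 13 in chromosome order and evenly spaced, for genes with at least 20 UMIs, with 95% intervals for counting error; colours give the family, dotted lines mark 2-fold, and genes without a point had fewer UMIs. Hist1h2ap has the highest ratio (29.5-fold), with Hist1h4n and Hist1h2br beside it also high, and Hist1h2bn the lowest.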

How the data were processed

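Single-cell RNA of 2 control libraries was analysed. The authors deposited a sparse matrix of raw UMI counts for each library, made with Cell Ranger 7.1.0 per the file headers. Versions 6.1 and 7.1.0, GRCm38 and mm10 are named in the submitters' processing notes. The authors' barcode filter, the annotation release and the handling of intronic, antisense and multiply aligned reads are not given in the sources used here.

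From these counts, barcodes were classed by marker UMIs as in the report, with no clustering and no doublet caller. UMIs were summed per class and library and tested with edgeR 4.0.16 in R 4.3.3 (quasi-likelihood test, TMM, filterByExpr), in one fit over 8 sums (4 classes in 2 libraries) with library as a block and 3 residual degrees of freedom, and a second fit over 8 S-rich and G2M-rich sums. The classes of a library come from one suspension, which is what pairs them. Adjusted p-values (Benjamini-Hochberg, threshold 0.05) cover all genes tested; the standard error is the log2 fold change over the square root of F. CPM is UMIs over all UMIs of the class. Library ratios have no test. In simulated sums with seeded changes, the test of cycling against other epithelial barcodes (13906 genes) recovered 43% of 2-fold and 97% of 4-fold changes with 5 false calls. For S-rich against G2M-rich epithelial barcodes (9997 genes) it was 44%, 97% and 4. The simulated sums shared a pooled profile and a fixed spread, without a difference between compartments, and 100 genes were changed at each fold. Many more genes differ in the real sums, so these figures may not carry over to them.

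The genes, lists and comparisons were chosen with earlier results of these data known. Genes named are the 15 with the most UMIs in cycling barcodes, up to 10 further called genes by size of change and up to 10 called genes of the companion lists, and for library ratios the 10 largest; Hist1h1a, Hist3h2ba, Hist2h2aa1, Hist1h4i, Hist1h4j, Hist4h4, Hist2h4, Slbp and the genes near the 2-fold limit were named after their values were seen. Alternatives covered scaling (DESeq2 1.42.0 size factors, total UMIs), the DESeq2 test, filters, gates, the block, depth and single libraries. Transcripts and coordinates are from GENCODE M21, promoters from RefSeq on GRCm38.p6.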

Additional observations from a re-analysis of the deposited data

Results flagged for a closer look

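Over all 13777 genes tested, the test of the difference between the 2 cycling changes called 11.4% higher and 20.6% lower. For 14 of the 57 histone cluster genes tested, the cycling change differed between epithelial and immune barcodes (edgeR, adjusted p under 0.05). The change is compared as log2, epithelial minus immune. It was larger in epithelial barcodes for Hist1h4k (3.05), Hist1h2bf (2.91), Hist2h2bb (2.59), Hist1h1b (2.27), Hist1h2ap (2.24), Hist1h1d (2.20), Hist1h3i (2.15), Hist1h2be (1.82), Hist1h3f (1.81), Hist2h2ac (1.79), Hist3h2a (1.67) and Hist1h4d (1.09). It was lower there for Hist1h1c (-1.22) and Hist1h2bc (-2.06). Several of these reversed with a stricter cycling gate, as the next part gives.

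Histone cluster UMIs were also found in barcodes that no comparison used. Barcodes that were neither epithelial nor immune by their markers, 214 in control 1 and 156 in control 2, held 465 and 502 CPM. Hemoglobin-dominated barcodes, 522 and 683 of them, held 610 and 486 CPM of their UMIs other than hemoglobin, from 158 and 145 UMIs.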

How the results depend on the processing

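Epithelial counts of rising genes (47 of 57 tested) stayed between 42 and 52 except thinned to 2000 UMIs (29 of 37 tested). Genes lower (2 of 57) were 1 of 57 with total UMIs only and with the 1% gate. With the 0.5% gate 1 of 59 was lower. After thinning it was 1 of 37, and without the 6% of barcodes with the most UMIs 1 of 53. Immune genes higher (24 of 57) were 44 of 59 with the 0.5% gate and 46 of 57 with the 1% gate. They were 10 of 54 with the 0.1% gate, 14 of 53 without the 6% with the most UMIs and 8 of 37 thinned. With no low-count filter 1 of 64 immune genes was lower. For the epithelial minus immune difference, genes higher (12 of 57) were 6 of 57 with no replicate block. They were 2 of 59 and 1 of 57 with the 0.5% and 1% gates and 26 of 53 without the 6% with the most UMIs. Genes lower (2 of 57) were 1 of 57 with total UMIs only and with no replicate block. They were 1 of 37 thinned and 1 of 53 without the 6%. With the 0.5%, 1% and 0.1% gates they were 11 of 59, 13 of 57 and 0 of 54. S-rich epithelial genes lower (2 of 40) were 0 of 40 with the DESeq2 test, total UMIs only and no replicate block. With the 0.5% and 1% gates they were 0 of 29 and 0 of 21. They were 1 of 40 with DESeq2 size factors, 1 of 49 with the 0.1% gate and 1 of 39 under 10% mitochondrial UMIs. With no low-count filter they were 7 of 61 and with one compartment 6 of 36. The 10-fold compartment gate gave 5 of 39 and a 2-fold phase split 8 of 28. S-rich immune genes lower (22 of 40) were 12 of 40 with no replicate block and 6 of 49 with the 0.1% gate. They were 14 of 24 without the 6% and 7 of 14 thinned. With the 1% gate, which left 8 and 4 S-rich barcodes, they were 0 of 21. For settings without a share of all genes called above, these counts have no such background. Without the library block, 38 of 150 named results lost their call. The block rests on both classes of a library coming from one suspension.

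Named results that reversed, on the log2 scale: for cycling epithelial Hist1h1c, 0.23 (1% gate), 0.12 (thinned) and 0.12 (without the 6%). For the epithelial minus immune difference, with the 0.5% gate, Hist1h1b -1.27, Hist1h2ap -1.27, Hist1h2ae -1.53, Hist1h2ab -2.34 and Hist1h3i -0.30; with the 1% gate, Hist1h1b -3.11, Hist1h2ap -2.81, Hist1h2ae -2.63, Hist1h2ab -3.37, Hist1h3e -1.499, Hist1h4k -0.48, Hist1h3i -0.92, Hist1h3f -0.37, Asf1b -0.15, Cenpa -0.40, H2afx -0.33 and Mms22l -0.23; Hist1h1c 0.056 without the 6%. For S-rich immune Hist1h1c, 0.30 (thinned). The 1% gate was chosen after seeing the data, and causes were not tested.

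The library ratio of the sum (1.05) was 0.958 over all deposited barcodes, 0.797 in hemoglobin-dominated barcodes, 1.09 under 10% mitochondrial UMIs, 0.880 without the 6%, 0.895 thinned, 1.47, 0.790, 1.54 and 1.20 in cycling epithelial, other epithelial, cycling immune and other immune barcodes, 1.08 in barcodes of neither class and 0.939 without Hist1h2ap. Shares of all genes stand in brackets. Genes at least 2-fold higher in control 2 (11 of 60) were 6 of 60 at 4-fold (1.31%) and 1 of 60 at 10-fold (0.365%). Fewer genes reached 20 UMIs in smaller sets: 7 of 45 were higher thinned (4.98%) and 6 of 37 in cycling immune barcodes (3.40%). In hemoglobin-dominated barcodes 1 of 3 was higher (4.10%) and in neither-class barcodes 1 of 6 (5.52%). Genes lower (4 of 60) were 1 of 60 at 4-fold (1.12%) and 0 of 60 at 10-fold (0.378%). In hemoglobin-dominated, other immune and neither-class barcodes they were 1 of 3 (16.4%), 1 of 38 (4.05%) and 1 of 6 (6.42%). Leaving out a library leaves no test for counts. Within each library alone, the genes called in the 5 comparisons kept their direction. The same 2 libraries gave those calls, so this agreement is not separate support. Low depth limits genes under 20 UMIs, for which no ratio is given.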
